A study of Mus musculus with 6 samples.

Results

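The 44 collagen chain genes of the mouse incisor gene table were analysed, out of 19270 genes in all. A gene was a member when its name consisted of Col, a type number, the letter a and a chain number. The members were placed in 5 classes by the kind of assembly their chains form, namely 11 fibrillar chains, 9 basement membrane chains, 9 FACIT chains (fibril-associated collagens with interrupted triple helices), 9 network chains and 4 transmembrane chains, and 2 chains (Col26a1 and Col28a1) were left unplaced. RNA-seq was performed on the proximal mesenchymal tissue of the incisor from 3 control mice, labelled wild type and, by the study's methods, Arid1b fl/fl without mention of the Cre, and 3 Gli1-CreER;Arid1b fl/fl mice (mutants), both given tamoxifen at 1 month of age and sampled 4 days after induction. Arid1b encodes a subunit of the BAF chromatin remodelling complex, and the tamoxifen-dependent Cre under Gli1 deletes it in cells that express Gli1 and in their progeny, not in the whole tissue.

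Collagens are trimers of chains that wind around each other in a triple helix, for which a glycine has to head each triplet of residues. Fibrillar chains form the fibrils of dentin, bone and pulp, and type I collagen, built from Col1a1 and Col1a2, is the main protein of the dentin matrix that odontoblasts secrete. Basement membrane chains form sheets under epithelium and around vessels, FACIT chains decorate fibrils, network chains form beaded filaments or hexagonal lattices, and transmembrane chains are held in the cell membrane.

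The repeat can be read in the genes themselves. A coding exon of 54 bases that begins with a glycine codon is printed below for 8 chains on which the comparisons turn, with the glycine codon at the head of each triplet in capitals. They were read from GRCm38 with GENCODE vM21 gene models, 5′ to 3′ on the strand of the gene, and lie in the coding part of the gene.
Col1a1 (chr11:94939904-94939957, plus strand): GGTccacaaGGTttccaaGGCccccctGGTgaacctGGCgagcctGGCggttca
Col1a2 (chr6:4515481-4515534, plus strand): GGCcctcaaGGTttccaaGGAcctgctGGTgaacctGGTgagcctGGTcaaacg
Col3a1 (chr1:45325360-45325413, plus strand): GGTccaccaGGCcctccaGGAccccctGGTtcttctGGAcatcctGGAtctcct
Col11a1 (chr3:114108281-114108334, plus strand): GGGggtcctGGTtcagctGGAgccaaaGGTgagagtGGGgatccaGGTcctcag
Col24a1 (chr3:145320661-145320714, plus strand): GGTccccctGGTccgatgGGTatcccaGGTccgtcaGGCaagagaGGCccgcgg
Col9a2 (chr4:121043696-121043749, plus strand): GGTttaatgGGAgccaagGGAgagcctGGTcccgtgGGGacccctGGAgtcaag
Col12a1 (chr9:79614349-79614402, minus strand): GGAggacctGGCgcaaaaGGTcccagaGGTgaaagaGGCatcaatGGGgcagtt
Col4a1 (chr8:11245211-11245264, minus strand): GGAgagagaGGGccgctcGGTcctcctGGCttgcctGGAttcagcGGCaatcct
The Col1a1 and Col1a2 exons had the same base at 42 of 54 positions, and those of Col1a1 and Col3a1 at 35 of 54. These were the 2 highest counts, and the other pairs of the 8 exons matched at 18 to 31 positions. Each exon was chosen for glycine codons at the head of its triplets, so the GG of these codons matches in every pair. Whether the exons correspond to each other was not tested. Exons of this length made up 305 of the 649 coding exons of the fibrillar chains (47.0%), 109 of 432 in the FACIT chains (25.2%), 14 of 158 in the transmembrane chains (8.86%), 17 of 224 in the network chains (7.59%) and 22 of 495 in the basement membrane chains (4.44%). In 9 of the 11 fibrillar chains the longest unbroken run of glycine triplets was between 337 and 344 triplets. The exceptions were Col24a1, with 216, and Col27a1, with 217. The longest runs of the basement membrane chains were 30 to 75 triplets.

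**Figure D1:**
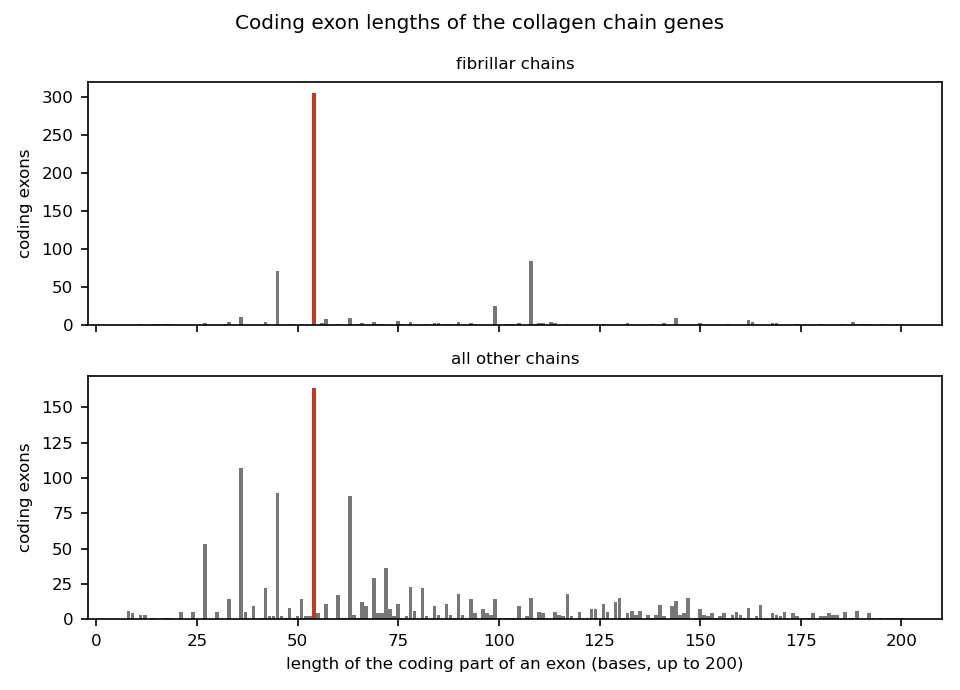
Lengths of the coding part of each exon, in bases up to 200, against the number of coding exons, for the 11 fibrillar chains (top) and all other collagen chains (bottom). The red bar marks 54 bases, which is the length of 305 of 649 coding exons in the fibrillar chains.

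The values are the authors' means of normalized read signal over the 3 libraries of a group. Values per gene and mouse were not analysed here, so the spread between mice does not enter any value below, no difference was tested, and differences are given as the log2 of the mutant mean over the control mean. A gene was counted where its mean over both groups was at least 1, and called higher or lower where the means differed by more than 1.5-fold. Each library held an estimated 37123643 to 49594469 reads, and 3 reads in every library correspond to a mean of 0.103 in controls and 0.0923 in mutants. The mean of Arid1b was 97.6 in controls and 38.0 in mutants (log2 fold change -1.36). Ddx3y, on the Y chromosome, was at the lowest mean of the table in controls (0.0259) and at 65.3 in mutants, and Xist at 3368 in controls and 814 in mutants, so sex-linked transcripts differed between the groups, and sex cannot be told apart from genotype in these means. Markers of dental epithelium were present in the mesenchymal tissue of both groups, at a summed mean of 1755 in controls and 10590 in mutants. Most of this sum came from the enamel genes Amelx, Ambn and Enam. In bulk tissue, fewer cells of a type and less RNA per cell cannot be told apart.

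Most of the abundant collagen chains had a lower mean in the mutants, with log2 fold changes from -0.02 (Col5a2) to -0.62 (Col9a2). Of the 41 members counted, 28 had a lower mutant mean (68.3%, against 48.6% of the 14744 genes counted), and the median log2 fold change was -0.17, against 0.005 over all counted genes. Among the 23 members with a mean of at least 100, 19 were lower in mutants (82.6%), with a median of -0.20, whereas 56.8% of all genes at that level were lower, with a median of -0.02. Of the 10 members with means from 10 to 100, 5 were lower, and of the 8 counted members under 10, 4 were lower. The summed mean of the 44 chains was 36299 in controls and 30813 in mutants, a ratio of 0.849, and made up 3.55% of the control signal and 3.14% of the mutant signal. Col1a1 alone gave 58.4% of this sum in controls and 55.6% in mutants.

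Few chains passed the 1.5-fold threshold. Higher in mutants were 4 of the 41 (9.76%), against 4.14% of all counted genes, and lower were 2 (4.88%), against 1.91%. The 4 higher chains were Col6a5, Col4a4, Col17a1 and Col28a1, of which all but Col17a1 had means under 10 over both groups, a level at which 8.75% of all counted genes were called higher. Col4a4 was counted among the 41 only through its mutant mean, so its call is tied to its being counted. The 2 lower chains were Col24a1 and Col9a2. The lower chain just inside the threshold was Col9a2 (-0.62), and just outside it were Col10a1 (-0.54) and Col19a1 (-0.48). On the higher side Col28a1 (0.65) was just inside, and Col26a1 (0.42) and Col3a1 (0.31) were the nearest outside. The 3 members that were not counted were Col4a3 (0.479 in controls and 0.706 in mutants), Col6a6 (0.294 and 0.488) and Col20a1 (0.700 and 1.12).

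**Figure D2:**
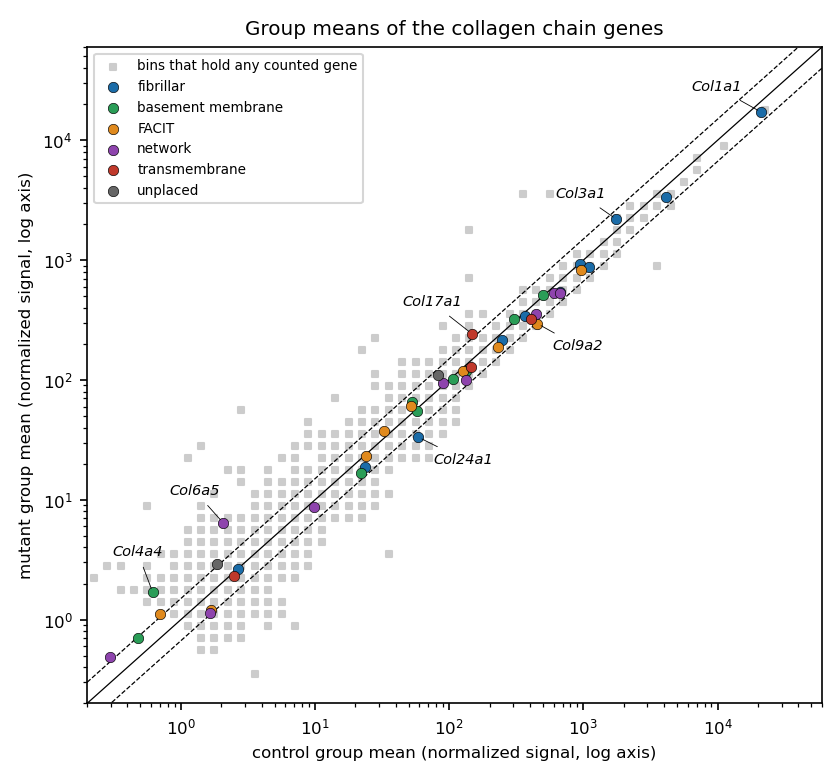
Control group mean against mutant group mean in normalized signal, both on log axes, for the 44 collagen chain genes (coloured by class) over bins that hold any counted gene within the axes (grey). The solid line marks equal means and the dashed lines 1.5-fold; Col1a1 and most chains with a mean over 100 lie just under the solid line, and Col17a1 above the upper dashed line.

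The fibrillar chains had a median of -0.30, and 9 of the 11 had a lower mutant mean. This was the lowest median of the 5 classes, except where only genes with a mean of at least 10 were counted, when the network chains had -0.33 and the fibrillar chains -0.30. Col1a1 was the second most abundant gene of the whole table in controls, with a mean of 21211, and had a mean of 17127 in mutants (log2 fold change -0.31). Its partner Col1a2 had means of 4106 and 3330 (-0.30). The log2 fold changes of these chains, which assemble in 1 trimer, differed by 0.0066. Values of this size were not particular to type I collagen. The others of the 10 most abundant genes in controls had values from -0.38 (CT010467.1) to -0.23 (mt-Nd5), except Eef1a1 with 0.03. Col11a1 and Col11a2, the type XI chains that sit in the core of fibrils and set their width, had means of 673 and 1094 in controls and of 546 and 880 in mutants, with log2 fold changes of -0.30 and -0.31. The type V chains, which also sit in fibril cores, had log2 fold changes nearer to 0, with -0.11 for Col5a1 (370 in controls and 342 in mutants) and -0.02 for Col5a2 (948 and 935), while the scarce Col5a3 (23.7 and 18.8) had -0.33.

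Col3a1, the chain of the thin fibrils of pulp, skin and vessels, had a higher mean in the mutants. It was 1764 in controls and 2187 in mutants, a log2 fold change of 0.31, and its share of the summed collagen signal was 4.86% in controls and 7.10% in mutants. The log2 fold changes of Col1a1 and Col3a1 differed by 0.62. Col24a1, a fibrillar chain known from developing bone, had the lowest log2 fold change of any member, -0.82, with a mean of 58.8 in controls and 33.3 in mutants, or 1.76-fold lower. Its relative Col27a1 had 249 and 216 (-0.20). Col2a1, the cartilage chain, was near 2.65 in controls and 2.67 in mutants.

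The order of the levels has to be read per kb of exon, since longer transcripts give more reads. Per kb of annotated exon, the control level was 3232 for Col1a1, 330 for Col1a2 and 180 for Col3a1, and these were the first 3 members in both groups. Col11a2 (159), Col9a2 (147), Col6a1 (138) and Col5a2 (98.8) came next. The size of these gaps depends on the length used. With the union of exons Col1a1 stood 9.78 times above Col1a2 in controls, and with the longest transcript 4.66 times. The Col1a1 to Col3a1 ratio per kb was 18.0 in controls and 11.7 in mutants, and 11.3 in controls with the longest transcript.

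**Figure D3:**
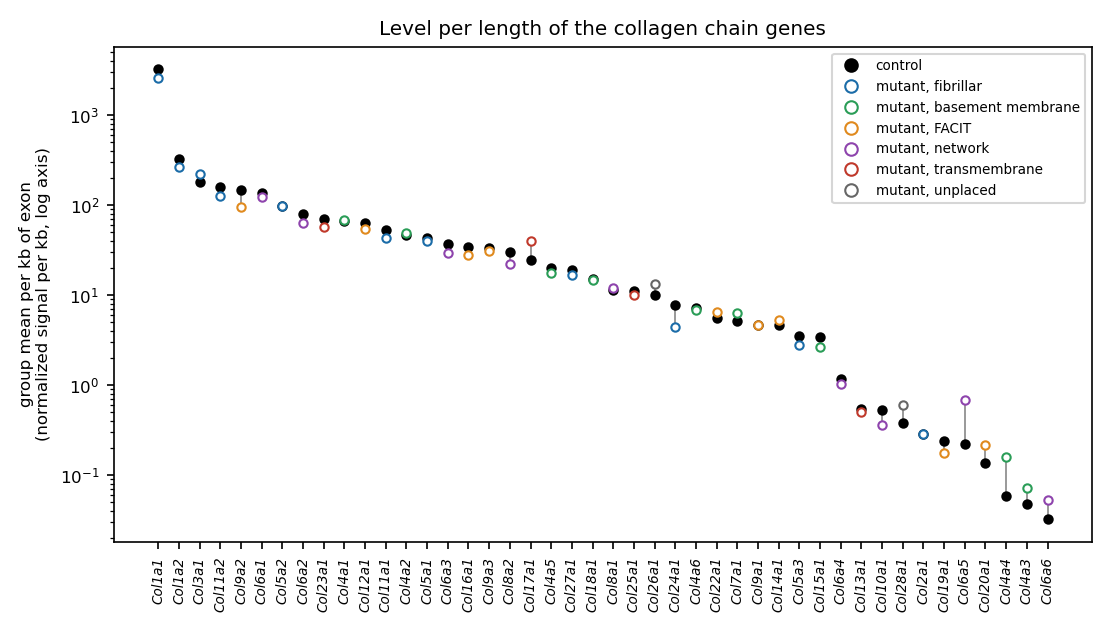
Group mean per kb of annotated exon, in normalized signal per kb on a log axis, for the 44 collagen chain genes in the order of their control level. Filled points are controls and open points are mutants, coloured by class; Col1a1 lies near 3232 in controls, above Col1a2 at 330, and Col6a6 is the lowest.

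The basement membrane chains showed no common direction, with 4 of the 8 counted chains lower and a median of -0.007. Where only genes with a mean of at least 10 were counted, which leaves out Col4a4, the median was -0.07. Col4a1 and Col4a2, which form the type IV trimer of most basement membranes, had means of 497 and 306 in controls and of 516 and 321 in mutants, with log2 fold changes of 0.05 and 0.07. Their levels per kb were the highest of the class, at 66.6 for Col4a1 and 46.2 for Col4a2 in controls, followed by Col4a5 at 20.0. Col4a5 had a log2 fold change of -0.18 (134 in controls and 119 in mutants) and its partner Col4a6 of -0.07. Col7a1, which forms the anchoring fibrils that hold epithelium to the tissue below, had a mean of 53.0 in controls and 65.2 in mutants (0.30). Col15a1 had -0.38 (22.0 and 16.9) and Col18a1, the source of endostatin, -0.07. Col4a4, a chain of the kidney type IV trimer, was called higher (0.616 and 1.69, log2 fold change 1.46), which rests on an estimated 23 reads per control library and 72 per mutant library, and the gene passed the filter on low means only through the mutant group.

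Of the FACIT chains, 6 of 8 had a lower mean and the class median was -0.16. Col9a2 had a mean of 454 in controls and 295 in mutants, a log2 fold change of -0.62. This set it apart from the chains with which it forms the type IX trimer on the surface of fibrils, since Col9a3 (127 and 118) had -0.11 and Col9a1 (23.8 and 23.3) had -0.03. Per kb, Col9a2 stood 4.45 times above Col9a3 in controls and 3.11 times in mutants, and the Col9a2 to Col9a1 ratio was 31.3 and 20.7. Col12a1, which links type I fibrils to their surroundings, had means of 959 and 829 (-0.21), and Col16a1 of 230 and 189 (-0.28). Col14a1 (32.7 and 37.5, 0.19) and Col22a1 (51.9 and 60.4, 0.22) were the FACIT chains with a higher mean among those counted. Col9a2 (147), Col12a1 (62.9) and Col16a1 (34.1) had the highest control levels per kb in the class.

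The network chains were lower in 6 of 8, with a median of -0.25. Type VI collagen forms beaded filaments around most mesenchymal cells. Col6a1 had means of 606 and 536 (-0.18), Col6a2 of 666 and 531 (-0.33) and Col6a3 of 445 and 355 (-0.33). Their control levels per kb were 138, 80.0 and 37.2, and the Col6a1 to Col6a2 ratio of 1.73 became 1.09 with the longest transcript. Col6a5, a scarce chain related to Col6a3, was the member with the largest log2 fold change, at 1.64, from a mean of 2.06 in controls and 6.43 in mutants (an estimated 79 and 278 reads per library). Its neighbour Col6a4 had 9.90 and 8.71 (-0.18). In type VIII, Col8a2 had means of 134 and 100.4 (-0.42) and Col8a1 of 89.2 and 95.0 (0.09), and the log2 fold changes differed by 0.51. Col10a1, the chain of hypertrophic cartilage, was at 1.65 and 1.14.

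Of the 4 transmembrane chains 3 had a lower mean (median -0.14), and Col17a1 was called higher. It is part of the hemidesmosomes that hold epithelial cells to the basement membrane, and its mean was 148 in controls and 242 in mutants, a 1.63-fold difference (log2 fold change 0.71). It was the only chain with a mean of at least 100 that was called higher. Beside it, 12 of the 14 epithelial markers were called higher (85.7%, against 4.14% of all counted genes) and none was called lower. Their summed mean was 6.03 times as high in mutants, but the enamel genes Amelx, Ambn and Enam gave most of this sum in both groups. The median log2 fold change of the 14 markers was 1.08, from -0.31 (Klk4) to 3.87 (Enam). The part of the epithelial markers in the Col17a1 difference was not tested. Col23a1 (406 and 325, -0.32) and Col25a1 (145 and 129, -0.17) had lower means, and Col13a1 was at 2.48 and 2.31 (-0.10). Per kb, Col23a1 (70.8), Col17a1 (24.7) and Col25a1 (11.2) were the highest of the class in controls. Of the unplaced chains, Col26a1 had means of 82.0 and 109 (0.42) and Col28a1 of 1.86 and 2.93 (0.65, an estimated 71 and 126 reads per library).

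**Figure D4:**
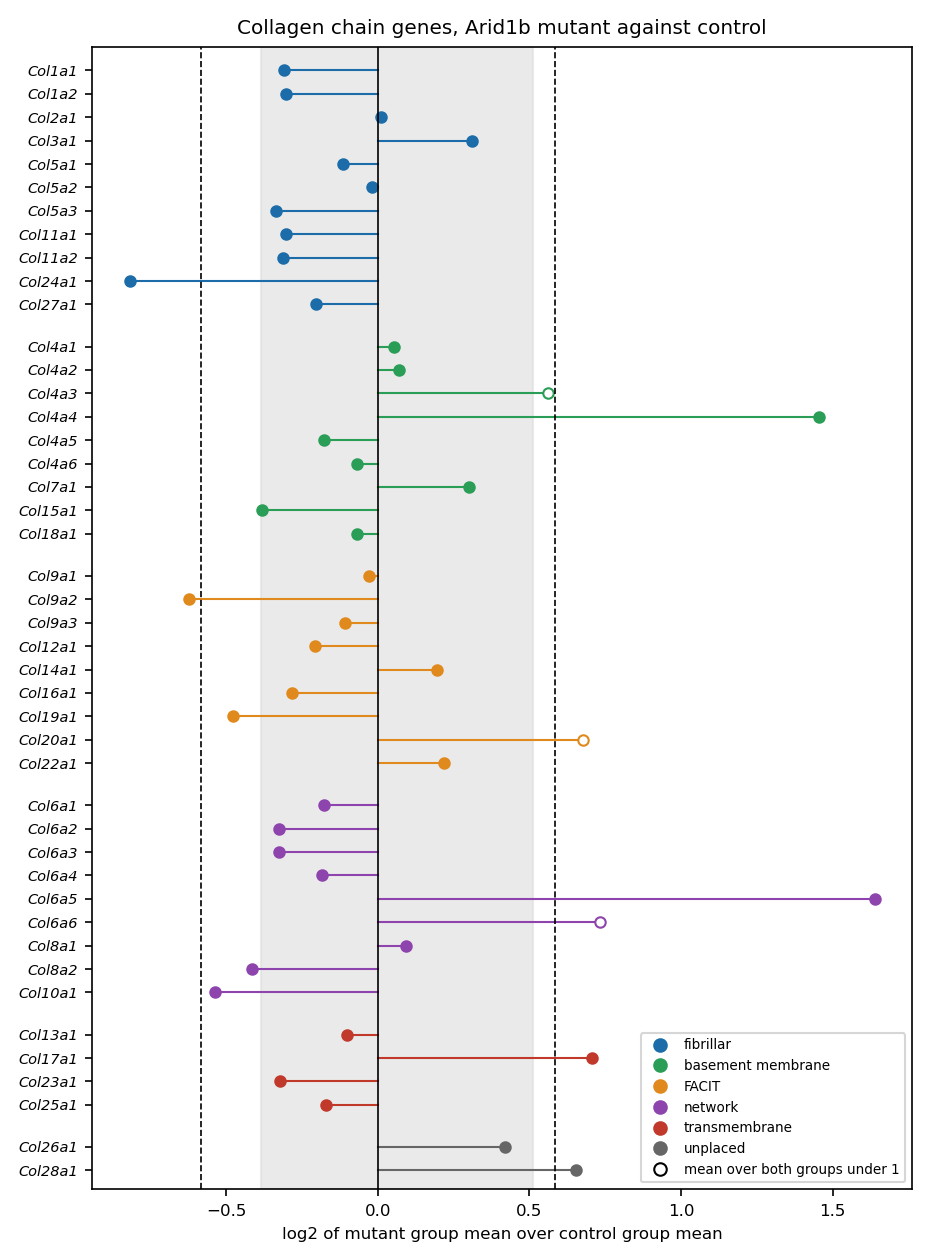
Log2 of the mutant group mean over the control group mean for the 44 collagen chain genes, grouped by class. Dashed lines mark 1.5-fold, the grey band holds the central 90% of all counted genes, and open points are the 3 chains that were not counted; 9 of 11 fibrillar chains lie left of zero and Col6a5, at 1.64, lies farthest right.

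Genes that make, process and read collagen were followed through lists. Among 20 genes of collagen folding and modification, 15 had a lower mutant mean and the median was -0.14. Over all counted genes 48.6% had a lower mutant mean. Serpinh1, the collagen chaperone HSP47, had means of 1626 and 1222 (-0.41), and Plod2, a lysyl hydroxylase, of 394 and 518 (0.39). P4ha3, a prolyl hydroxylase subunit, was called higher at a low level (3.42 and 6.77, 0.99), and P3h2, a prolyl 3-hydroxylase, lower (21.6 and 14.4, -0.59). The P3h2 difference, 1.501-fold, was only just past the threshold. Of 12 counted genes of procollagen processing and crosslinking, 8 were lower (median -0.10), and only Tll1, a procollagen C-proteinase, passed the threshold (4.73 and 10.7, 1.18). The 10 counted fibril-associated proteins had a median of -0.30, with 7 lower. Of these, Fmod, a small proteoglycan that binds type I fibrils, was called lower with means of 1140 and 749 (-0.61), as was the scarce Kera (2.15 and 1.34, -0.68). Ogn (116 and 207, 0.84) and Thbs2 (98.4 and 154, 0.65) were called higher.

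Of the 14 basement membrane partners 7 had a higher and 7 a lower mutant mean, with a median of -0.04. Lama3 and Lamb3, laminin chains of epithelial basement membranes, were called higher. Lama3 had means of 24.2 in controls and 167 in mutants (2.79) and Lamb3 of 40.8 and 119 (1.55). The epithelial markers above had higher means beside them. Among the 9 counted collagen receptors, Itga10, an integrin subunit that binds collagen, was called lower (38.8 and 24.5, -0.66). Among the 9 counted genes of collagen degradation, Mmp13 (41.0 and 138, 1.76) and Mmp9 (9.25 and 16.9, 0.87), both collagen-degrading proteases, were called higher. Each of the 6 lists had between 1 and 4 genes past the threshold, and none was tested. Over all counted genes, 4.14% were called higher and 1.91% lower. In lists this short, 1 gene alone makes 5% of the folding list and 8.33% of the processing list.

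Markers of other cell types were set beside the collagens. The summed mean of the dental mesenchyme markers was 5506 in controls and 4466 in mutants (Vim -0.28 and Lum -0.32, with Gli1 called lower, 106 and 46.1, -1.21). Of these 9 markers 7 had a lower mean, and Twist1 (0.22) and Prrx1 (0.07) had a higher one. Lum and Dcn are also in the list of fibril-associated proteins. The CreER of the mutants is under Gli1, and the part of this in the Gli1 mean was not tested. The sum of the odontoblast markers was 6364 and 5053 (Dspp -0.32 and Phex -0.22, with Dmp1 called lower, 68.1 and 23.7, -1.52). Dspp gave most of the odontoblast sum (5179 and 4136), and all 4 counted odontoblast markers had a lower mean. The osteoblast markers summed to 2196 and 1865 (Bglap -0.27 and Alpl -0.28) and the chondrocyte markers to 621 and 519 (Sox9 -0.25 and Hapln1 -0.18, with Acan called lower, 30.6 and 14.1, -1.11). In the other direction, the dental follicle and periodontal ligament markers summed to 326 and 400 (Postn 0.33 and Mkx 0.14) and the macrophage markers to 206 and 233 (Csf1r 0.20 and C1qb 0.12). Postn gave most of the follicle sum (264 and 333). Of the 4 counted follicle markers 3 had a higher mean and Aspn a lower one (-0.28). Of the 6 endothelial markers 4 had a higher mean, with a median of 0.06 and a sum of 344 and 349 (the most abundant, Cdh5 and Kdr, had -0.01 and -0.16). For the remaining lists, the perivascular sum was 653 and 583 (Rgs5 -0.27 and Acta2 0.49, with Kcnj8 called lower, 21.5 and 11.0, -0.96), the glial sum 20.0 and 19.1 and the skeletal muscle sum 5.66 and 5.19 (Acta1 -1.16 and Myh4 1.90). In the epithelial list Amelx, the main enamel matrix protein, was at 362 and 3946 (3.45) and Ambn at 617 and 3360 (2.44). Every marker listed in the table had a mean above that of 3 reads in each library, in both groups. The part of these cell types in the collagen means was not tested.

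**Figure D5:**
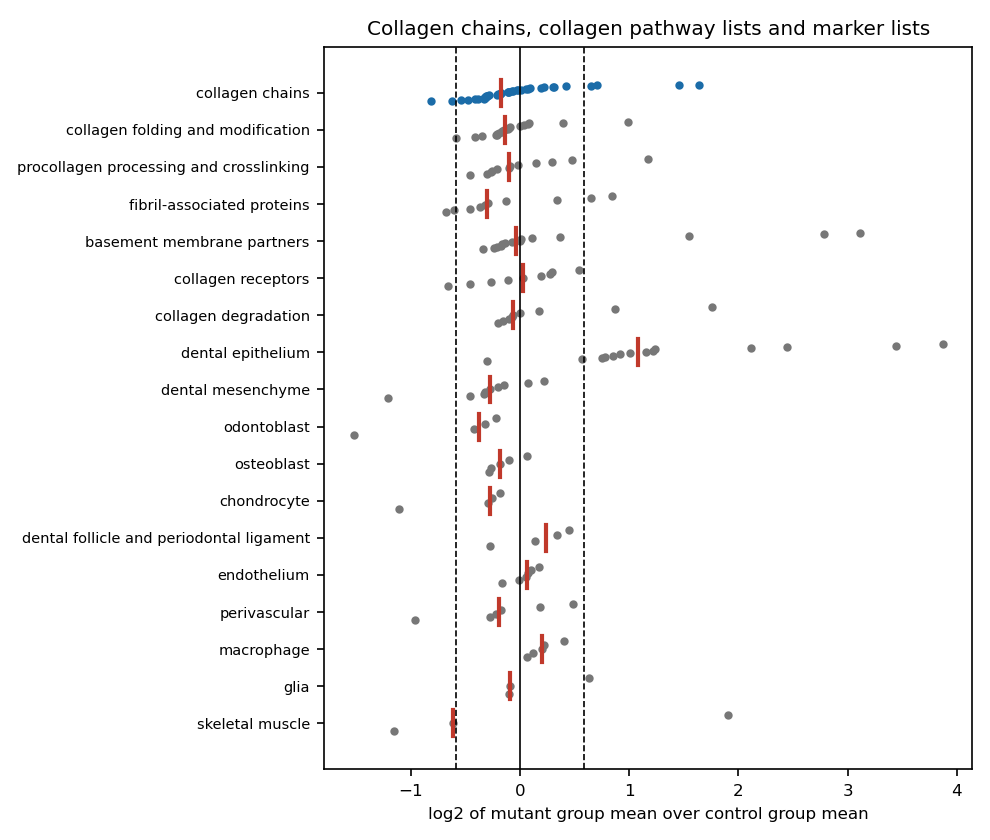
Log2 of the mutant group mean over the control group mean for each counted gene of the collagen chains, 6 collagen pathway lists and 11 cell type marker lists. Points are genes, red bars the median of a list, and dashed lines mark 1.5-fold; the epithelial markers have a median of 1.08, and the fibril-associated proteins of -0.30.

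The 250 bases before the transcription start are printed for 4 fibrillar chains, because Col11a1 and Col11a2 had almost equal log2 fold changes, Col3a1 had a higher mean in mutants and Col24a1 had the lowest log2 fold change. They come from RefSeq on GRCm38.p6, on the plus strand as transcribed, and hold no exon annotated in GENCODE vM21. Windows were printed only where this held, which left out Col1a2, with 125 exon bases in its window. Col1a1 had no window. For Col11a2 the RefSeq start lies upstream of the GENCODE gene. Capitals mark 3 motifs on either strand, the TATA box core TATAAA, the CCAAT box of that spelling and the GC box, spelled GGGCGG. No marked motifs overlap.
Col3a1 (chr1:45311288-45311537, plus strand): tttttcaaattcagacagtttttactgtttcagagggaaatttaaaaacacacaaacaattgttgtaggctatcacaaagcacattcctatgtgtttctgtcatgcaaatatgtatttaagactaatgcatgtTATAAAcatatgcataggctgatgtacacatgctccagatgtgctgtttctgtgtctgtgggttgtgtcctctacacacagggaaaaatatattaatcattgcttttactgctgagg
Col24a1 (chr3:145292222-145292471, plus strand): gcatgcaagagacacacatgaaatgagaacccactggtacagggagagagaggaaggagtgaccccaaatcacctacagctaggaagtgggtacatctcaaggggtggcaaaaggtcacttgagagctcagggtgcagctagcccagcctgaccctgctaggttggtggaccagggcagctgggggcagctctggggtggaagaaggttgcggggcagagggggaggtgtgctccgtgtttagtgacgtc
Col11a1 (chr3:114030290-114030539, plus strand): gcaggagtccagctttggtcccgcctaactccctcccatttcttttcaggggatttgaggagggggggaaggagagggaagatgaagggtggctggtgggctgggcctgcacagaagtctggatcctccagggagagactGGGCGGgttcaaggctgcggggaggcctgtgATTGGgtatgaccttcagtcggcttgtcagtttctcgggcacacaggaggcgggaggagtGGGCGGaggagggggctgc
Col11a2 (chr17:34038888-34039137, plus strand): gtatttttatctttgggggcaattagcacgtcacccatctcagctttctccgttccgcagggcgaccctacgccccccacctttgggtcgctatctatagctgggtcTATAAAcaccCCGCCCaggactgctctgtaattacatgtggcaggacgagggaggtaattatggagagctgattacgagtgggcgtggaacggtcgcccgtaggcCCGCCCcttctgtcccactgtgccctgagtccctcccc
Col3a1 and Col11a2 each held a TATAAA, which began 117 and 143 bases before the start, and Col24a1 held none of the motifs. Whether these matches act as TATA boxes was not tested. RefSeq windows were found for 35 of the 44 members (38 windows), and all promoters were the 32851 windows of that table. With both strands searched, GGGCGG was in 57.9% of member windows and 32.7% of all windows, CCAAT in 34.2% and 33.8%, and TATAAA in 13.2% and 12.4%. The median GC content was 59.0% in member windows and 52.4% in all.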

How the data were processed

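Bulk RNA-seq of 3 control and 3 mutant libraries was analysed. According to the methods of the study, the authors used Partek Flow for trimming, for alignment to mm10 and for their group comparison. The submitters' processing notes name TopHat2 2.0.8. The annotation, the read counting and the use of strand are not given in the sources used here. The deposited tables hold normalized signal: 1 mean per gene and group, and a summary over genes of each library, whose upper quartiles lie between 44.57 and 44.58. Columns of the authors' comparison (p-values, FDR, ratios and fold changes) and a filtered gene table were not used. Groups come from the sample titles and genotype labels.

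Log2 fold changes, counts and medians were computed in Python 3.11.15 with pandas 2.3.3 and figures drawn with matplotlib 3.10.9. Genes with a mean of at least 1 over both groups were counted, and called past 1.5-fold, the fold in the study's methods. The scripts were tested on simulated data. Reads per library were estimated from the deposited mean and lowest signal of a library, taking the lowest value as no read. Levels per kb used the union of exons in GENCODE vM21. Of the members, 13 share exon bases with another gene, and 10 with one on the opposite strand, at most 6.07% of exon bases, so reads of such stretches may be shared. Triplet runs of at least 5 triplets were read from the translated coding sequence.

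The members and lists were chosen with earlier results of these data known. Named genes are members past the threshold or next to it, the 3 highest per kb of each class, partner chains, pathway genes past the threshold and the 2 most abundant markers of each list. Some genes covered by this rule are not reported here. Other members are accounted for by their values. Serpinh1, Plod2, Gli1, Dmp1, Acan, Kcnj8, Ddx3y, Xist, Twist1, Prrx1, Dcn, Aspn, Enam, Klk4, CT010467.1, mt-Nd5 and Eef1a1 were named after their values were seen. Alternatives were another filter, fold threshold, pseudocount, centring, scaling and transcript length.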

Additional observations from a re-analysis of the deposited data

How the results depend on the processing

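No paired analysis was possible because the deposited gene table holds 1 mean per group, and for the same reason leaving out single libraries was not run. Of 137 alternative values, 127 stayed near the reported value, 8 moved and 2 changed sign. Near meant a count, level or ratio within 1.5-fold, or a log2 value of the same sign within 0.1. Many values could not change, since a fold threshold alters no log2 fold change and a filter on the mean alters none of a single gene. With a mean of at least 10, 1 of 33 chains was called higher (Col17a1; 2.15% of all genes) and 2 lower (0.912%). A pseudocount of 1 left 3 of 41 chains called higher (2.91% of all genes) and 2 lower (1.15% of all genes). With a fold threshold of 2, 2 of 41 chains were called higher (1.46% of all genes) and 0 lower (0.536%). With the smaller alternative fold threshold, 5 of 41 chains were called higher (9.10% of all genes) and 10 lower (7.12% of all genes). The basement membrane median turned positive without a filter on the mean (0.054) and, in an alternative chosen after seeing the data, when scaled to the summed signal of all genes but the most abundant transcript (0.026). That transcript took 8.97% of control and 7.18% of mutant signal. The control level of Col3a1 per kb was 317 with the longest transcript, and the ratios of Col1a1 to Col1a2 (4.66), Col6a1 to Col6a2 (1.09) and Col1a1 to Col3a1 (11.3) moved with it. Under the same scaling 63.4% of counted members had a lower mutant mean, against 39.9% of all counted genes. Depth limits Col4a3, Col4a4, Col6a6 and Col20a1 most, at 10 to 72 estimated reads per library. Col10a1 (63 in controls and 48 in mutants) and Col19a1 (63 and 51) also rest on few estimated reads per library.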

Other observations

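Several collagen genes lie next to each other, and their differences were set side by side. Col4a1 and Col4a2 start 21 bases apart on opposite strands of chromosome 8, and their log2 fold changes were 0.05 and 0.07. Col4a5 and Col4a6, which start 1309 bases apart on the X chromosome, had -0.18 and -0.07. Col4a3 and Col4a4 start 72 bases apart on chromosome 1 and had 0.56 and 1.46, both at means under 2 in either group. Col3a1 and Col5a2 face each other on chromosome 1 with 24614 bases between them and had 0.31 and -0.02. On chromosome 9, Col6a4, Col6a5 and Col6a6 lie in a row in the same direction and had -0.18, 1.64 and 0.73, of which Col6a6 was not counted. Coordinates are those of GENCODE vM21 on GRCm38, and whether neighbours share their control was not tested.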
